A study of Homo sapiens with 18 samples.

Results

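The D-type cyclins, the kinases CDK4 and CDK6, their INK4 inhibitors and the pocket proteins form the core of the pathway on which abemaciclib and palbociclib act, and the transcripts of 9 of its genes were followed out of the 60656 gene rows of the count table. They are CCND1 and CCND3 (D cyclins), CDK4 and CDK6 (kinases), CDKN2C and CDKN2D (INK4 inhibitors), and RB1, RBL1 and RBL2 (pocket proteins), chosen by role and matched by Ensembl identifier, and all 9 were found. RNA was measured by 3′-end sequencing in CAMA-1 and ZR-75-1, 2 established lines of oestrogen receptor-positive breast cancer described as parental and wild type. Each line received DMSO as the vehicle, abemaciclib at 500 nM or palbociclib at 500 nM for 5 days, with 3 replicates for each of the 6 groups and 18 libraries in all. The design asks how the machinery that these inhibitors target changes at the transcript level, and whether the drugs or the lines differ in it.

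As background, D cyclins bind and activate CDK4 and CDK6, and the active kinases phosphorylate the pocket proteins, which releases E2F transcription factors and lets the cell enter S phase. INK4 proteins bind the kinases and keep them from pairing with a cyclin. Cyclin D1 is a well-known oestrogen-responsive gene of luminal breast cancer, whereas several INK4 and pocket protein genes are themselves E2F targets, so that the pathway feeds back on its own parts.

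Total counts were 2308442 to 4146549 per library. All 8 luminal markers (such as GATA3, KRT8 and EPCAM) were detected in both lines, and the basal and endothelial markers reached at most 3 counts in any library. Of 4 fibroblast markers COL1A1 had 26 to 108 counts per library, COL1A2 and PDGFRB had none, and LUM reached 2 counts; the summed level of this list was 14.8 to 24.6 CPM (counts scaled to a common library total) in CAMA-1 with DMSO, 10.3 to 13.0 CPM in CAMA-1 with either drug and 19.2 to 32.7 CPM in ZR-75-1. Of 4 leucocyte markers LYZ had up to 38 counts, PTPRC reached 3 and CD68 1, and CD3E had none. The summed level of this list was 0.9 to 4.7 CPM in ZR-75-1 with DMSO. It was 2.0 to 6.1 CPM there under abemaciclib, 5.6 to 11.0 CPM under palbociclib, and at most 3.9 CPM in CAMA-1. Mitochondrially encoded genes took 15.7% ± 0.87 of the counts of CAMA-1 with DMSO, 24.8% ± 1.37 under abemaciclib and 23.6% ± 1.15 under palbociclib, against 19.0% to 20.2% in the group means of ZR-75-1 (SD, n = 3). The part of these differences in the results was not tested. Leaving out the mitochondrial genes removes their rows alone. After it, every change of a tested member against DMSO kept its direction and its side of the threshold.

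Levels are given as normalised CPM, that is CPM of a library total scaled by the trimmed mean of M values (TMM), and changes as log2 fold changes with their standard error (SE) from edgeR's quasi-likelihood test. A gene is said to have risen or fallen where its Benjamini-Hochberg adjusted p over all genes tested was below 0.05. In bulk RNA, less RNA per cell and fewer cells of a kind cannot be told apart. In CAMA-1, 2 of the 8 members tested rose and 5 fell under abemaciclib, where 20.3% of all 11053 genes tested rose and 20.1% fell. With palbociclib the same counts were 2 and 5 of 8, beside 18.4% and 18.7% of all genes. In ZR-75-1, 1 of 9 members rose and 4 fell under abemaciclib, beside 17.9% and 18.3% of all 11017 genes tested, and 1 rose and 2 fell under palbociclib, beside 14.5% and 13.4%. The median log2 fold change over the members tested was -0.59 for abemaciclib and -0.52 for palbociclib in CAMA-1, and the ZR-75-1 medians were -0.71 and -0.26, while that over all genes lay between -0.01 and 0.01. Both drugs of a line were compared with the same 3 DMSO libraries, so their agreement is not independent.

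**Figure D1:**
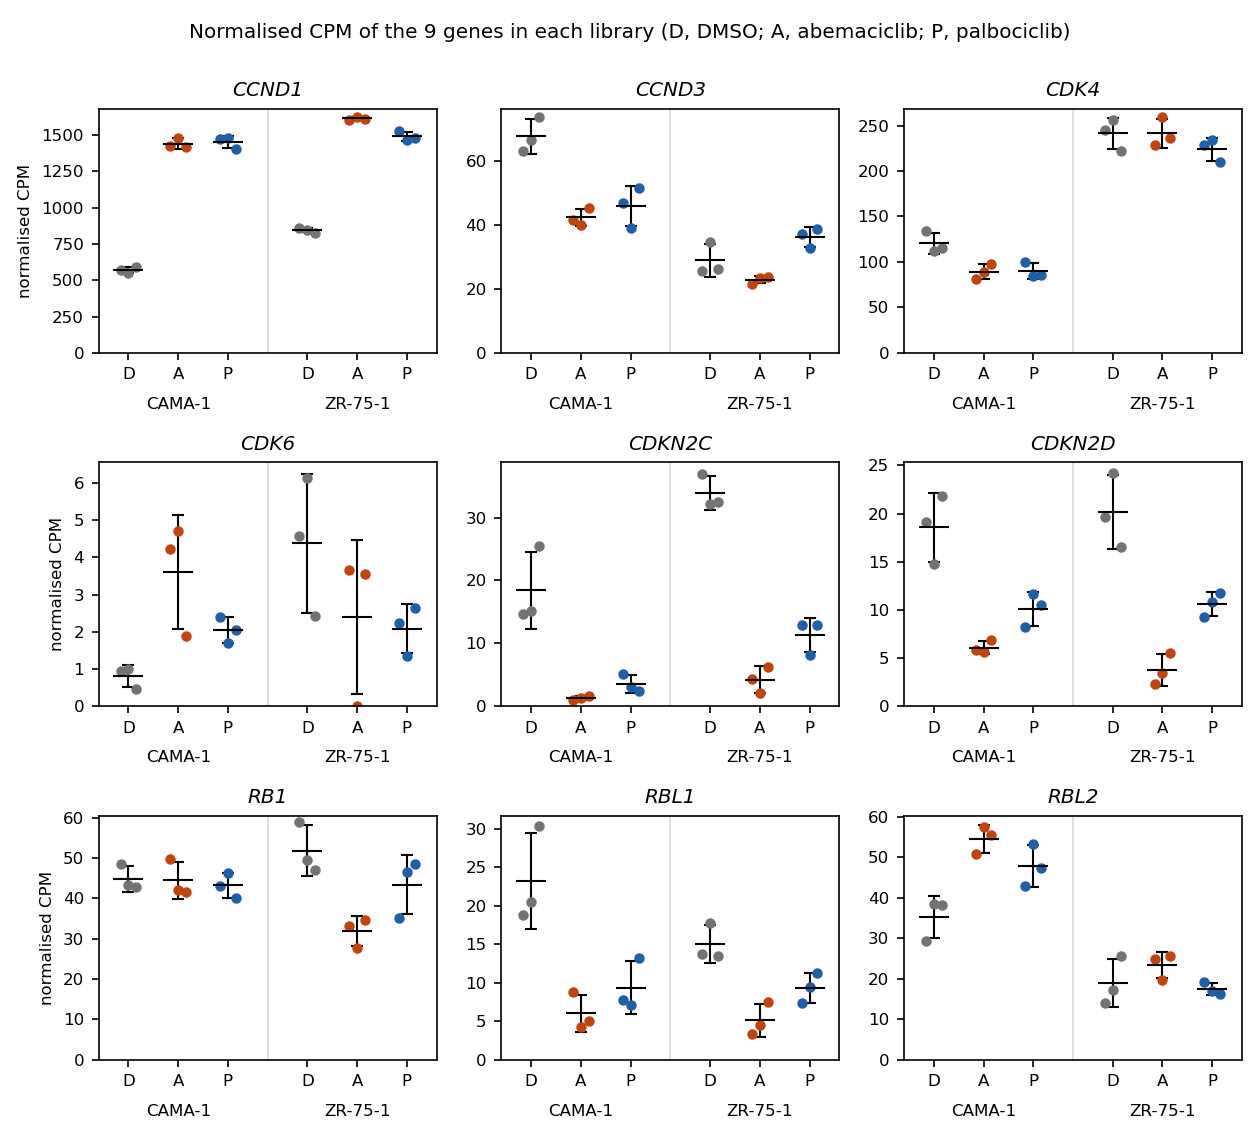
Normalised CPM (linear axes from 0) of each of the 9 genes in the 18 libraries; points are libraries, horizontal bars group means and error bars SD (n = 3; D, DMSO; A, abemaciclib; P, palbociclib). CCND1 was above its DMSO range in all 12 drug-treated libraries, and CDKN2C, CDKN2D and RBL1 were below theirs.

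CCND1, encoding cyclin D1, the partner that activates CDK4 and CDK6, rose with both drugs in both lines. In CAMA-1 it stood at 571, 551 and 594 normalised CPM with DMSO, at 1425, 1483 and 1415 under abemaciclib and at 1476, 1479 and 1402 under palbociclib. The treated libraries lay far above the DMSO libraries, and the 2 drugs overlapped. The log2 fold change was 1.30 (SE 0.06, 2.46-fold, adjusted p = 8.0e-22) under abemaciclib and 1.31 (SE 0.06, 2.48-fold, adjusted p = 7.3e-22) under palbociclib. In ZR-75-1 it stood at 856, 846 and 828 normalised CPM with DMSO, at 1606, 1627 and 1610 under abemaciclib and at 1528, 1464 and 1479 under palbociclib. The 3 groups did not overlap there, under abemaciclib highest. The change was 0.93 (SE 0.06, 1.90-fold, adjusted p = 2.1e-18) under abemaciclib and 0.82 (SE 0.06, 1.76-fold, adjusted p = 7.4e-16) under palbociclib on the log2 scale. Over the 6 groups, ZR-75-1 under abemaciclib was highest, ZR-75-1 under palbociclib and both drug groups of CAMA-1 overlapped their neighbours below it, and the DMSO groups of ZR-75-1 and then CAMA-1 were lowest without overlap.

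The gene lies at chr11:69641156-69654474 on the plus strand (hg38, GENCODE), and its 3′ end is overlapped by LTO1 on the opposite strand. LTO1 had 47 to 120 counts per library against 1646 to 6132 for CCND1, and in CAMA-1 it moved the other way, by -0.68 (SE 0.19, adjusted p = 0.0037) and -0.91 (SE 0.19, adjusted p = 1.6e-04) on the log2 scale. Whether the counting used strand is not stated in the sources, so reads of overlapping genes cannot be told apart with certainty.

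CCND3, encoding cyclin D3, fell under either drug in CAMA-1, and neither of its changes in ZR-75-1 passed the test. With DMSO the CAMA-1 libraries held 62.9, 66.3 and 73.5 normalised CPM, under abemaciclib 41.6, 39.9 and 45.3, and under palbociclib 46.7, 39.0 and 51.4. Neither drug group reached the DMSO range. The log2 fold change was -0.71 (SE 0.12, adjusted p = 9.85e-06) under abemaciclib and -0.61 (SE 0.12, adjusted p = 8.5e-05) under palbociclib. The ZR-75-1 libraries held 25.5, 34.7 and 26.3 normalised CPM with DMSO, 21.6, 23.3 and 23.7 under abemaciclib, and 37.0, 32.6 and 38.6 under palbociclib. Abemaciclib lay below the DMSO range, while palbociclib overlapped its upper end. Neither change passed the test, at -0.35 (95% interval -0.70 to 0.00, adjusted p = 0.116) and 0.32 (95% interval -0.01 to 0.64, adjusted p = 0.141), although the palbociclib value became 0.48 with an adjusted p of 0.048 without DMSO replicate 2. CCND3 spans chr6:41934934-42050357 on the minus strand, and its processed copies CCND3P1 and CCND3P2 had 0 counts in every library.

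Within a library, the share of CCND1 in the summed counts of CCND1 and CCND3 moved in the same direction throughout. It was 89.4% ± 0.57 in CAMA-1 with DMSO, 97.1% ± 0.24 under abemaciclib and 96.9% ± 0.48 under palbociclib. In ZR-75-1 it was 96.7% ± 0.56, 98.6% ± 0.06 and 97.6% ± 0.18 in the same order (SD, n = 3). No drug-treated library overlapped its DMSO group, and each of these 4 comparisons gave p = 0.1 in a two-sided exact permutation test, the smallest that 3 against 3 libraries allow. Such a share is free of library scaling and is read between groups, since 3′ counts do not compare molecules of 2 genes with certainty.

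**Figure D2:**
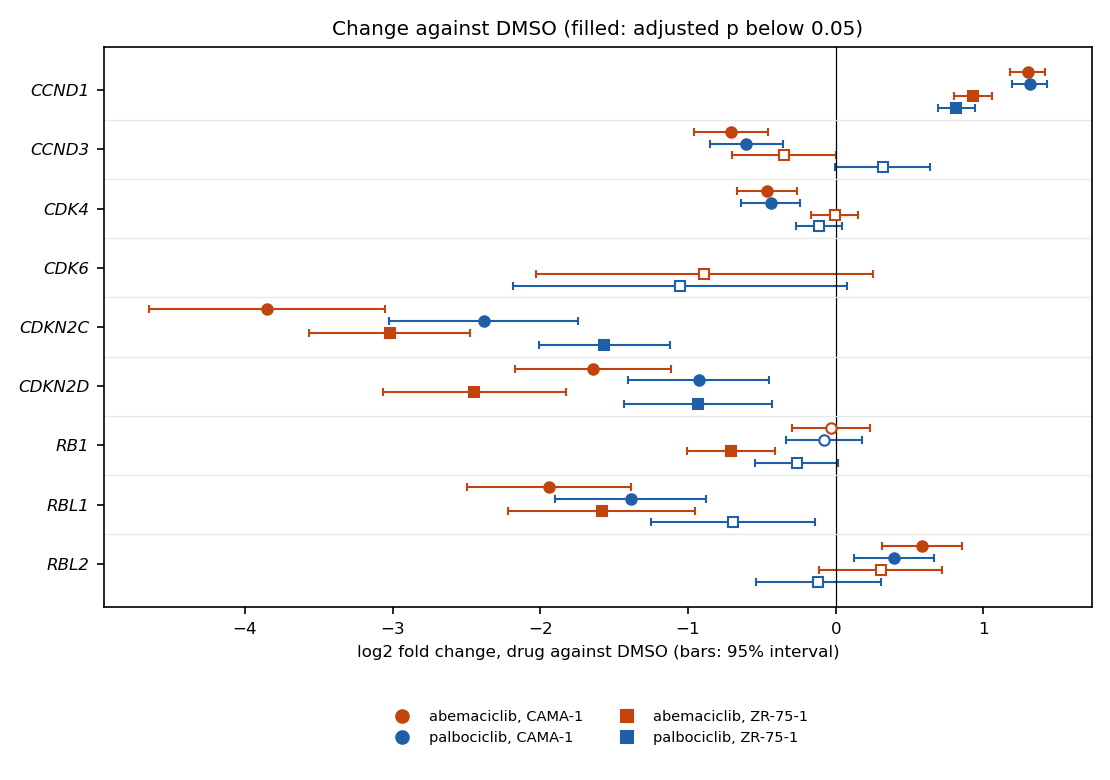
Log2 fold change against DMSO (x axis) with 95% intervals for each gene, drug and line; filled symbols passed the test. CCND1 lay between 0.82 and 1.31 in all 4 comparisons and CDKN2C between -3.85 and -1.57, while CDK4 and CCND3 have filled symbols for CAMA-1 alone. CDK6 in CAMA-1 had too few counts for the test and is not drawn.

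CDK4, the catalytic kinase that both drugs bind, fell in CAMA-1. Its level there was 134, 112 and 115 normalised CPM with DMSO, 81.5, 88.8 and 97.5 under abemaciclib, and 100, 84.2 and 86.1 under palbociclib. Every treated library lay below the DMSO range. The log2 fold change was -0.46 (SE 0.10, adjusted p = 2.2e-04) under abemaciclib and -0.44 (SE 0.10, adjusted p = 3.7e-04) under palbociclib. In ZR-75-1 its level was 245, 256 and 222 normalised CPM with DMSO, 229, 259 and 236 under abemaciclib, and 228, 234 and 209 under palbociclib. These groups overlapped, and the changes of -0.01 (95% interval -0.17 to 0.15) and -0.11 (95% interval -0.27 to 0.04) did not pass the test. CDK4 (chr12:57747727-57756013, minus strand) is overlapped at its 3′ end by TSPAN31 on the opposite strand, with 43 to 166 counts per library and no change against DMSO that passed the test, and its copy CDK4P1 had 0 counts.

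CDK6, the paralogous kinase at chr7:92604921-92836573 (minus strand), was close to the detection limit. In CAMA-1 it had 3, 3 and 2 counts with DMSO, 16, 11 and 6 under abemaciclib, and 10, 6 and 6 under palbociclib. Both drug groups lay above the DMSO libraries, but the gene did not pass the filter on low counts in this line. The ratio of summed counts over scaled library totals was 4.64 under abemaciclib (exact 95% Poisson interval 2.10 to 11.6) and 2.71 under palbociclib (1.16 to 7.05), intervals that cover counting error only. With no filter on low counts the log2 fold change was 2.13 under abemaciclib (SE 0.69, adjusted p = 0.0096) and 1.35 under palbociclib (SE 0.73, adjusted p = 0.211), and DESeq2 gave 2.16 (adjusted p = 0.029) and 1.36 (adjusted p = 0.247). ZR-75-1 had 14, 20 and 7 counts with DMSO, 11, 0 and 9 under abemaciclib, and 8, 4 and 9 under palbociclib. The count of 0 allows up to 1.01 CPM in that library. The groups overlapped, and the changes of -0.89 (95% interval -2.03 to 0.25) and -1.06 (95% interval -2.19 to 0.07) did not pass the test.

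Among the counts of the kinase pair, the CDK6 share in CAMA-1 was 0.67% ± 0.25 with DMSO, 3.96% ± 1.79 under abemaciclib and 2.22% ± 0.20 under palbociclib, without overlap with DMSO (exact two-sided permutation p = 0.1 for each drug). In ZR-75-1 it was 1.75% ± 0.64, 1.02% ± 0.88 and 0.93% ± 0.34, with overlapping libraries (exact p = 0.4 and 0.2). CDK4 counts made up most of the pair's counts in all 18 libraries.

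The INK4 inhibitor genes CDKN2C and CDKN2D fell with both drugs in both lines, and CDKN2C had the largest change among the members tested in each of these 4 comparisons. CDKN2C encodes p18, which binds CDK4 and CDK6, and lies at chr1:50960745-50974634 on the plus strand. It had 46, 45 and 111 counts in CAMA-1 with DMSO (14.7, 15.1 and 25.5 normalised CPM), 4, 3 and 5 under abemaciclib (1.06, 1.29 and 1.56 normalised CPM), and 21, 11 and 7 under palbociclib (5.05, 3.13 and 2.38 normalised CPM). The 3 groups did not overlap. The log2 fold change was -3.85 (SE 0.40, 14.4-fold lower, adjusted p = 6.4e-11) under abemaciclib and -2.38 (SE 0.32, 5.21-fold lower, adjusted p = 4.55e-08) under palbociclib. DMSO replicate 3 was the highest of its group, and without it the abemaciclib value was -3.53. In ZR-75-1 CDKN2C stood at 37.0, 32.2 and 32.5 normalised CPM with DMSO, at 4.31, 2.08 and 6.31 under abemaciclib and at 12.9, 8.14 and 13.0 under palbociclib. Again the groups were separate, under palbociclib in between, and the log2 fold change was -3.02 (SE 0.27, 8.11-fold lower, adjusted p = 6.0e-14) for abemaciclib and -1.57 (SE 0.22, 2.96-fold lower, adjusted p = 8.7e-08) for palbociclib.

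CDKN2D is the other INK4 gene among the members, apart from CDKN2A and CDKN2B, which are given with the wider pathway list below. It encodes p19 and lies at chr19:10566460-10569059 on the minus strand. Its levels in CAMA-1 were 19.2, 14.7 and 21.8 normalised CPM with DMSO, 5.82, 5.58 and 6.87 under abemaciclib, and 8.18, 11.7 and 10.5 under palbociclib. In ZR-75-1 they were 19.6, 24.2 and 16.6 with DMSO, 2.32, 3.47 and 5.53 under abemaciclib, and 9.26, 10.9 and 11.8 under palbociclib, in normalised CPM. In either line the 3 groups were ordered DMSO, palbociclib, abemaciclib without overlap. Under abemaciclib the log2 fold change was -1.64 for CAMA-1 (SE 0.26, adjusted p = 1.5e-06) and -2.45 for ZR-75-1 (SE 0.31, adjusted p = 2.3e-09). Under palbociclib it was -0.93 for each, with SE 0.24 and adjusted p = 0.0015 for CAMA-1 and SE 0.25 and adjusted p = 0.0031 for ZR-75-1.

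In CAMA-1, CDKN2D made up 50.7% ± 5.36 of the summed counts of CDKN2C and CDKN2D with DMSO. This share was 82.4% ± 1.88 under abemaciclib and 74.1% ± 10.7 under palbociclib (SD, n = 3). Both drugs were without overlap with DMSO (exact two-sided permutation p = 0.1). The ZR-75-1 shares of 37.1% ± 5.04, 48.1% ± 13.8 and 48.8% ± 7.76 overlapped (exact p = 0.2 for each drug). With abemaciclib a library held 16 to 27 summed counts of the pair in CAMA-1 and 16 to 30 in ZR-75-1. The shares were not compared between the lines.

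**Figure D3:**
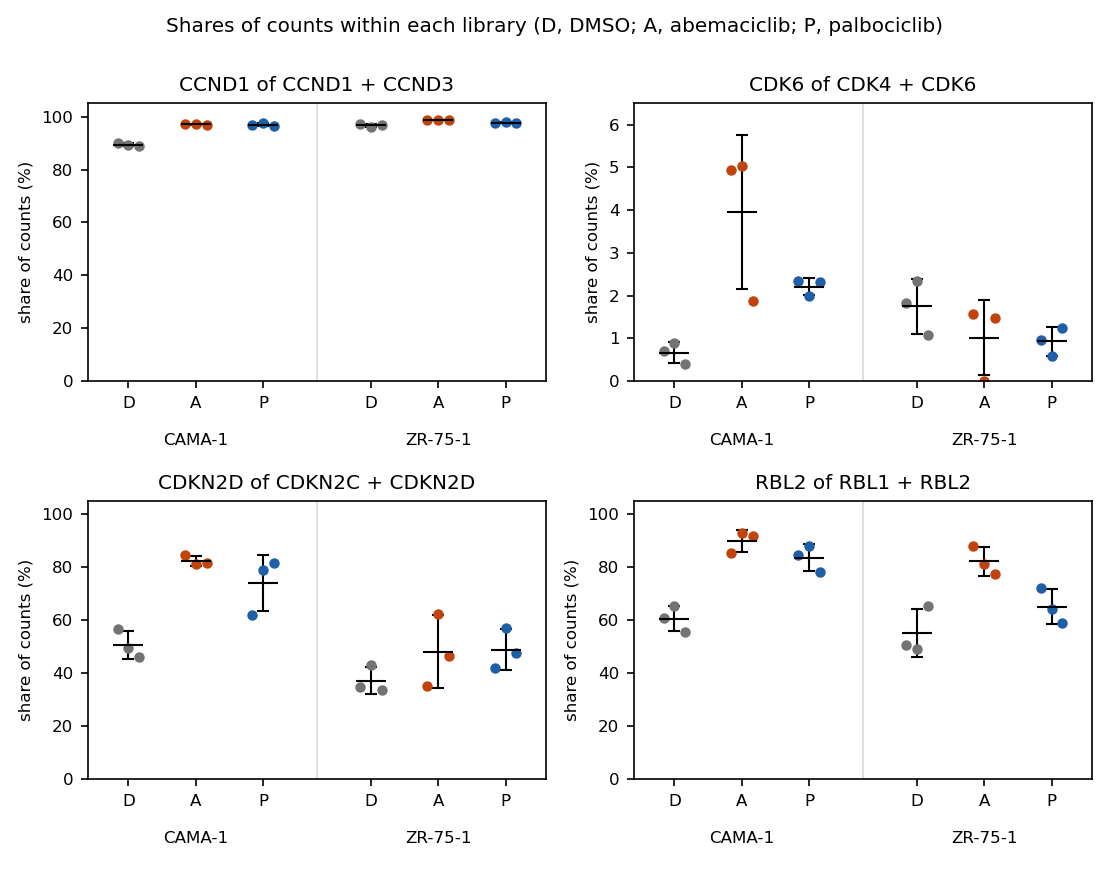
Share of one gene in the summed counts of a pair (y axis, %) in each library, with group mean and SD (n = 3); D, DMSO; A, abemaciclib; P, palbociclib. The CDK6 panel has its own, shorter axis. The RBL2 share was above the DMSO range in all libraries of both drugs in CAMA-1 and of abemaciclib in ZR-75-1.

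In CAMA-1 the pocket protein genes divided, with RBL1 lower and RBL2 higher under either drug. RB1 encodes Rb, the main target of the kinases, and lies at chr13:48303744-48599436 on the plus strand. In CAMA-1 it held 48.5, 43.2 and 42.7 normalised CPM with DMSO, 49.8, 42.1 and 41.5 under abemaciclib, and 43.1, 46.4 and 40.1 under palbociclib. The groups overlapped, and the changes of -0.03 (95% interval -0.29 to 0.23) and -0.08 (95% interval -0.34 to 0.18) did not pass the test. In ZR-75-1 the values were 58.9, 49.4 and 47.0 normalised CPM with DMSO, 33.2, 27.8 and 34.7 under abemaciclib, and 35.1, 46.5 and 48.6 under palbociclib. Abemaciclib lay below DMSO in all 3 libraries, at -0.71 (SE 0.15, 1.63-fold lower, adjusted p = 1.2e-04), and palbociclib overlapped DMSO, at -0.26 (95% interval -0.55 to 0.02, adjusted p = 0.162).

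RBL1 encodes p107, a relative of Rb that pairs mainly with E2F4, and RBL2 encodes p130, which holds cell-cycle genes silent in resting cells as part of the DREAM complex. RBL1 lies at chr20:36996349-37095997 (minus strand) and RBL2 at chr16:53433977-53491648 (plus strand). Since their transcripts moved in opposite directions in CAMA-1, the stretch around a RefSeq start site of each (GRCh38.p14, 5′ to 3′ on the gene's strand, 70 bases before the start and 30 from it) is shown with matches in capitals. The letters searched on both strands over the full promoter windows, 250 bases before to 50 after the start, were TTTCCCGC, TTTCGCGC, TTTGCCGC and TTTGGCGC for E2F sites and TTTGAA and TTCGAA for the CHR element that DREAM binds.
RBL1 promoter, chr20:37095968-37096067, minus strand: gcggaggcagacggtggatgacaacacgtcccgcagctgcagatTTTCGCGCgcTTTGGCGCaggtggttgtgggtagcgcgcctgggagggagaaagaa
RBL2 promoter, chr16:53434401-53434500, plus strand: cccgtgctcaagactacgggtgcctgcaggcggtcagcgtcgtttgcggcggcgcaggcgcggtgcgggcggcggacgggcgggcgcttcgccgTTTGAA
The RBL1 window held 2 E2F matches, beginning at -26 and -16 from the start, and was the only 1 of the 14 windows found for 8 members to hold any, whereas 3.31% of all 35116 promoter windows held at least 1. The RBL2 window shown held 1 CHR match, beginning at 24, and the other RBL2 window held none. It was 1 of the 14 member windows to hold that motif, beside 16.4% of all windows. These matches are a description of letters, not of binding.

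RBL1 fell in CAMA-1, from 18.8, 20.4 and 30.3 normalised CPM with DMSO to 8.73, 4.29 and 5.00 under abemaciclib and 7.70, 7.11 and 13.3 under palbociclib. All treated libraries were below the DMSO range, and the log2 fold change was -1.94 (SE 0.28, adjusted p = 1.7e-07) and -1.39 (SE 0.25, adjusted p = 2.0e-05). ZR-75-1 held 13.8, 17.8 and 13.5 normalised CPM with DMSO, 3.32, 4.52 and 7.50 under abemaciclib, and 7.29, 9.49 and 11.2 under palbociclib. There too the treated libraries lay below DMSO, but only abemaciclib passed the test, at -1.58 (SE 0.31, adjusted p = 4.4e-05). Palbociclib gave -0.69 (95% interval -1.25 to -0.14, adjusted p = 0.053), which became -0.71 (adjusted p = 0.047) with upper-quartile scaling and -0.86 (adjusted p = 0.043) without palbociclib replicate 3.

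RBL2 rose in CAMA-1, from 29.4, 38.5 and 38.1 normalised CPM with DMSO to 50.8, 57.5 and 55.6 under abemaciclib and 42.8, 53.2 and 47.3 under palbociclib. Neither drug overlapped DMSO. The change under abemaciclib was 0.58 (SE 0.14, 1.5-fold, adjusted p = 4.8e-04). That under palbociclib was 0.39 (SE 0.13, 1.31-fold, adjusted p = 0.018), and it did not pass the test with DESeq2 (0.40, adjusted p = 0.069), without DMSO replicate 1 (0.28, adjusted p = 0.147) or without palbociclib replicate 2 (0.31, adjusted p = 0.117). In ZR-75-1 RBL2 held 14.1, 17.2 and 25.6 normalised CPM with DMSO, 24.9, 19.8 and 25.7 under abemaciclib, and 19.1, 17.0 and 16.2 under palbociclib. These groups overlapped, and the changes were 0.30 (95% interval -0.11 to 0.72, adjusted p = 0.270) and -0.12 (95% interval -0.54 to 0.31, adjusted p = 0.738). Without DMSO replicate 3, the highest of its group, the abemaciclib change was 0.57 (adjusted p = 0.049). The 3′ end of RBL2 is overlapped on the opposite strand by AKTIP, which had 6 to 47 counts per library and no change against DMSO that passed the test.

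Taking both relatives within a library, RBL2 made up 60.7% ± 4.82 of their summed counts in CAMA-1 with DMSO, 90.0% ± 4.13 under abemaciclib and 83.7% ± 5.14 under palbociclib. Neither drug overlapped DMSO (exact two-sided permutation p = 0.1). The ZR-75-1 libraries gave 55.1% ± 9.05 with DMSO and 82.3% ± 5.49 under abemaciclib, again separate (exact p = 0.1). It was 65.2% ± 6.67 under palbociclib, which overlapped DMSO (exact p = 0.3; SD, n = 3 throughout).

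Abemaciclib and palbociclib, both inhibitors of CDK4 and CDK6 given here at the same dose and for the same time, were next compared with each other within a line. In CAMA-1 none of the 8 members tested differed by edgeR's adjusted p, while 2.33% of all genes did, and CDKN2C and CDKN2D had an unadjusted p below 0.05. CDKN2C was lower under abemaciclib by -1.47 (95% interval -2.49 to -0.44, adjusted p = 0.131) and CDKN2D by -0.71 (95% interval -1.28 to -0.14, adjusted p = 0.224) on the log2 scale. DESeq2 called none of the members in this comparison either. For the cyclins and CDK4 the 95% interval of the difference was -0.13 to 0.10 (CCND1), -0.37 to 0.16 (CCND3) and -0.23 to 0.18 (CDK4). For the pocket proteins it was -0.22 to 0.31 (RB1), -1.18 to 0.08 (RBL1) and -0.07 to 0.45 (RBL2). The test does not show that the drugs act alike on any of these genes.

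In ZR-75-1, 4 of 9 members were lower under abemaciclib than under palbociclib and none was higher, beside 13.2% of all genes in either direction. They were CCND3 at -0.67 (SE 0.17, adjusted p = 0.0038), CDKN2C at -1.45 (SE 0.31, adjusted p = 4.8e-04), CDKN2D at -1.51 (SE 0.33, adjusted p = 6.8e-04) and RB1 at -0.44 (SE 0.15, adjusted p = 0.040). The 3 palbociclib libraries lay above the 3 abemaciclib libraries for each of these genes. The RB1 call was the least secure of them, since the adjusted p was 0.058 with upper-quartile scaling, 0.058 with no filter and 0.169 with DESeq2, and 0.073, 0.221 and 0.055 without abemaciclib replicates 1, 2 and 3, and 0.155 and 0.216 without palbociclib replicates 2 and 3. RBL1 was lower by -0.89 (95% interval -1.56 to -0.22, adjusted p = 0.065), which became -1.24 (adjusted p = 0.027) without abemaciclib replicate 3 and -1.04 (adjusted p = 0.041) without palbociclib replicate 1. For CCND1 the difference was 0.11 (95% interval -0.01 to 0.24), for CDK4 0.11 (-0.05 to 0.26), for RBL2 0.42 (0.00 to 0.84, adjusted p = 0.198) and for CDK6 0.17 (-1.10 to 1.44), none of which passed the test. Together the 2 lines gave 17 tests of a member between the drugs.

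**Figure D4:**
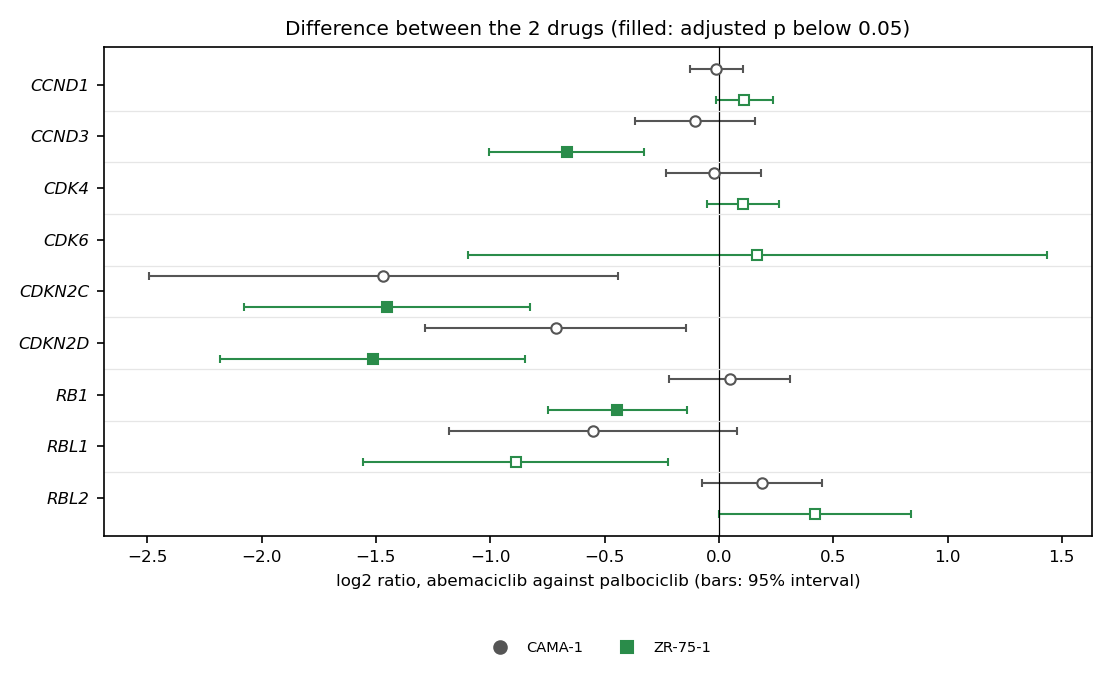
Log2 ratio of abemaciclib to palbociclib (x axis) with 95% intervals in CAMA-1 (circles) and ZR-75-1 (squares); filled symbols passed the test. CDKN2C lay at -1.47 and -1.45 in the 2 lines and CDKN2D at -0.71 and -1.51, and the 4 filled symbols all belong to ZR-75-1.

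Responses of the 2 lines were compared in 1 fit over all 18 libraries, as the log2 response of ZR-75-1 minus that of CAMA-1. With abemaciclib 4 of 9 members differed, beside 18.2% of all 11987 genes tested. CCND1 rose less in ZR-75-1, by a difference of -0.40 (SE 0.08, adjusted p = 2.8e-04). CDK4 differed by 0.43 (SE 0.13, adjusted p = 0.011), a call that was lost without CAMA-1 abemaciclib replicate 1 (0.37, adjusted p = 0.057). RB1 differed by -0.70 (SE 0.20, adjusted p = 0.0079), with all 3 ZR-75-1 libraries below their DMSO range and the CAMA-1 groups overlapping. CDK6 differed by -3.03 (SE 0.89, adjusted p = 0.0090) on the few counts given above. It had not passed the filter in CAMA-1 alone. It was tested in the comparisons of the lines because the ZR-75-1 libraries were added, so the call is not support for a change within CAMA-1. The differences for CCND3 (0.34, 95% interval -0.08 to 0.76), CDKN2D (-0.83, 95% interval -1.68 to 0.02) and RBL2 (-0.31, 95% interval -0.79 to 0.18) did not pass the test.

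With palbociclib 3 of 9 members differed between the lines, beside 20.3% of all genes. CCND1 again rose less in ZR-75-1, by -0.52 (SE 0.08, adjusted p = 1.7e-06). CCND3 differed by 0.90 (SE 0.20, adjusted p = 4.0e-04), being lower than DMSO in all CAMA-1 libraries while the ZR-75-1 groups overlapped. CDK6 differed by -2.43 (SE 0.93, adjusted p = 0.047), and this call was lost in 14 of 18 alternatives, including the fit with no filter (adjusted p = 0.054), DESeq2 (0.052) and the removal of any 1 of the CAMA-1 DMSO libraries (adjusted p = 0.070, 0.064 and 0.136), CAMA-1 palbociclib libraries (0.119, 0.063 and 0.0755) or ZR-75-1 palbociclib libraries (0.066, 0.099 and 0.055), or of ZR-75-1 DMSO replicate 1 (0.079) or 2 (0.138). CDK4 differed by 0.30 (95% interval 0.05 to 0.55, adjusted p = 0.085), and reached an adjusted p of 0.024 to 0.043 when the mitochondrial genes or any of 5 single libraries were left out. RBL2 differed by -0.54 (95% interval -1.03 to -0.05, adjusted p = 0.115), which became -0.71 (adjusted p = 0.042) without ZR-75-1 DMSO replicate 1. RB1 (-0.21, 95% interval -0.60 to 0.17) and CDKN2D (-0.03, 95% interval -0.72 to 0.66) did not pass the test either. The responses of CDKN2C and RBL1 were not separated by the test in either comparison, with intervals of -0.34 to 1.96 and -0.56 to 1.21 for abemaciclib and -0.01 to 1.59 and -0.11 to 1.43 for palbociclib.

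**Figure D5:**
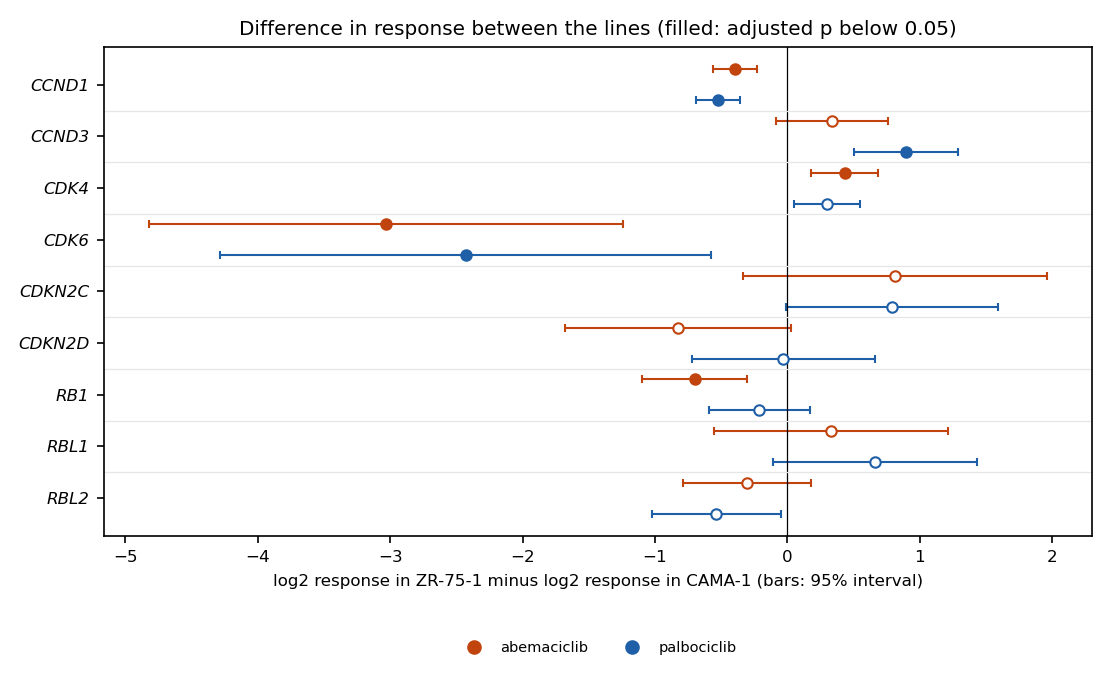
Log2 response in ZR-75-1 minus log2 response in CAMA-1 (x axis) with 95% intervals for abemaciclib and palbociclib; filled symbols passed the test. CCND1 lay below 0 for both drugs (-0.40 and -0.52), RB1 is filled for abemaciclib alone and CCND3 for palbociclib alone.

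With DMSO the lines already differed in 7 of the 9 members, beside 61.3% of all genes tested. ZR-75-1 held more CCND1 (0.56, SE 0.06, adjusted p = 2.3e-12), CDK4 (1.01, SE 0.09, adjusted p = 1.1e-15) and CDKN2C (0.85, SE 0.23, adjusted p = 8.8e-04), and less CCND3 (-1.23, SE 0.14, adjusted p = 1.1e-11) and RBL2 (-0.91, SE 0.17, adjusted p = 6.4e-06), as log2 ratios of ZR-75-1 to CAMA-1. CDK6 had 41 counts in ZR-75-1 with DMSO and 8 in CAMA-1 with DMSO, a ratio of 5.83 over scaled totals (exact 95% Poisson interval 2.697 to 14.4, counting error only). It passed edgeR's test in the fit over 18 libraries (adjusted p = 8.8e-04), but had not passed the filter in CAMA-1 alone. RBL1 was lower in ZR-75-1 by -0.64 (SE 0.25, adjusted p = 0.021), but the value was -0.42 (adjusted p = 0.204) without CAMA-1 DMSO replicate 3, -0.58 (0.073) without ZR-75-1 DMSO replicate 1 and -0.57 (0.069) without ZR-75-1 DMSO replicate 3. CDKN2D at 0.11 (95% interval -0.34 to 0.56) and RB1 at 0.21 (95% interval -0.06 to 0.48) did not pass the test. Each line is a single culture lineage, so a difference between them is one between these 2 lines.

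A list of 35 other genes of the pathway, such as Cip/Kip inhibitors, E2F factors and DREAM subunits, was followed alongside. In CAMA-1, 33 were tested, of which 5 rose and 14 fell under abemaciclib (median log2 fold change -0.19), beside 20.3% and 20.1% of all genes, and 3 rose and 14 fell under palbociclib (median -0.27), beside 18.4% and 18.7%. In ZR-75-1, 31 were tested, of which 4 rose and 12 fell under abemaciclib (median -0.20), beside 17.9% and 18.3% of all genes, and 3 rose and 10 fell under palbociclib (median -0.04), beside 14.5% and 13.4%. The medians over all genes were within 0.01 of 0 in each of these comparisons.

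Among the relatives of the members, CDKN2A, which encodes the INK4 protein p16 as well as ARF, fell by -0.65 and -0.56 in CAMA-1 and by -2.56 and -1.03 in ZR-75-1 (log2, abemaciclib and palbociclib). CDKN2B, encoding p15, rose by 1.499 and 1.69 in CAMA-1 and had too few counts for the test in ZR-75-1, as had CCND2 in both lines. CDKN1A, encoding the CDK inhibitor p21, rose by 1.99 and 1.64 in CAMA-1 and fell by -2.48 and -1.04 in ZR-75-1. CDKN1B, encoding p27, which also helps assemble cyclin D with CDK4, fell in all 4 comparisons, by -0.43 to -0.95, and CDKN1C, encoding p57, fell by -1.91 in CAMA-1 under abemaciclib.

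Of the 3 genes of the next kinase step, CCNE2, encoding cyclin E2, fell in all 4 comparisons, by -2.72 and -1.32 in CAMA-1 and by -4.86 and -1.47 in ZR-75-1. CDK2 fell in CAMA-1 alone among the comparisons that passed the test (-1.01 and -0.82), and CCNE1 in ZR-75-1 under abemaciclib alone (-0.95). Among 7 genes of the E2F and DP partners of the pocket proteins, 3 fell and 1 rose under abemaciclib in each line. E2F2 and TFDP1 fell in all 4 comparisons, for example by -2.43 and -1.21 in CAMA-1 under abemaciclib. E2F1 fell in 3 of them (-1.62, -0.92 and -1.03) and had -0.19 in ZR-75-1 under palbociclib, which did not pass the test. Under abemaciclib E2F3 rose by 0.26 in CAMA-1 and by 0.77 in ZR-75-1, where it also rose under palbociclib (0.45), as did TFDP2 (0.61).

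Of 5 subunits of the MuvB core, which joins RBL2 or RBL1 in the DREAM complex, 4 were tested. LIN52, LIN54 and RBBP4 fell under each drug in CAMA-1 (-0.71, -0.70 and -0.38 under abemaciclib), and none of the 4 passed the test in ZR-75-1. All 3 catalytic subunits of PP1 (PPP1CA, PPP1CB and PPP1CC), the phosphatase that removes phosphate from Rb, fell in ZR-75-1 with both drugs (-0.34 to -0.65), whereas PPP1CA and PPP1CC fell in CAMA-1 (-0.60 to -0.68). The kinase that activates CDKs had CDK7 higher under abemaciclib in both lines (0.81 and 1.04) and MNAT1 lower in CAMA-1 (-0.53 under abemaciclib and -1.22 under palbociclib). CDC37, a chaperone adaptor of CDK4, rose in ZR-75-1 (0.36 and 0.32). Among 7 genes for cyclin D turnover and assembly, GSK3B, whose kinase marks cyclin D1 for export and degradation, rose in CAMA-1 (0.33 and 0.24) and fell in ZR-75-1 under palbociclib (-0.32). DDB1 fell in CAMA-1 under palbociclib (-0.27), and in ZR-75-1 under abemaciclib FBXO4 fell (-0.57) and FBXO31 rose (0.59).

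Between the drugs, 9 of 31 pathway genes tested in ZR-75-1 were lower under abemaciclib and 2 were higher, beside 875 lower and 576 higher of all 11017 genes, and 2 of 33 were lower in CAMA-1, beside 169 of all 11053. CCNE2 was lower under abemaciclib in both lines (by -1.40 for CAMA-1 and -3.39 for ZR-75-1), as was E2F1 (-0.69 and -0.84).

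The genes most alike to each member were found by Pearson correlation of log2 CPM, centred within each line, over the 18 libraries, a description in which all points share treatment and library. CCND1 was most like IL6ST (r = 0.99), the gp130 receptor gene, TAPBP and WIPI1. CDKN2C was most like LMNB1 (0.98), MCM7 and COPS3, CDKN2D like NDC80 (0.96), DIAPH3 and CNIH2, and RBL1 like SRGAP2 (0.95), KIF2C and H2AZ1. MCM7 belongs to the replicative helicase, and NDC80 and KIF2C act at kinetochores in mitosis. RBL2 was most like HMBOX1 (0.87), SMAD1 and BLZF1, RB1 like RHOU (0.90), GNL2 and PARD3, and CCND3 like PSMC5 (0.92), POLD2 and SF3B5. CDK4 was most like RPS7P3 (0.87), MOB3B and RPL7, where reads of RPS7P3, a pseudogene, may belong to its parent gene. For CDK6 (GALNT10, PCSK1N and AMMECR1L, highest r = 0.83) the closest genes were less alike than for the other members.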

How the data were processed

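Total RNA of 18 cultures of 2 cell lines was sequenced from the 3′ end with a Lexogen QuantSeq kit, and the study describes the replicates of a group as independent biological replicates. The deposited table holds raw read counts per gene. Per the labels, and as the study's methods state, the authors trimmed adapters with BBDuk, aligned reads to hg38 with STAR 2.7.5b and counted them with featureCounts 2.0.1 on GENCODE release 35. The kit is named with different read directions by these sources, and whether the counting used strand, or how it treated reads with several matches, is not given in the sources used here. With 3′ counting, a gene whose transcripts end at an unannotated site is undercounted.

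Of 60656 gene rows, 35543 held no count in any library, and 42020 identifiers had a symbol. Counts were tested with edgeR 4.0.16 (R 4.3.3) by the quasi-likelihood test, with TMM scaling, the filterByExpr filter on low counts and Benjamini-Hochberg adjustment over all genes tested. Each line was fitted on its 9 libraries (11053 and 11017 genes), and the comparison of the lines and of their responses on all 18 libraries (11987 genes). The genes tested held 99.48% to 99.64% of the counts in the 3 fits. The tests were checked on simulated counts. Shares within a library were compared by two-sided exact permutation tests. Coordinates are from GENCODE release 44 and promoter sequences from RefSeq (GRCh38.p14), which had windows for 8 of the 9 members. CCND1 had no entry, and that of RB1 lies at an internal start.

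By rule all 9 members are given in each comparison in which they were tested. The other pathway genes are given as counts and named where they changed against DMSO, and the 3 genes most alike are named for each member among those with a symbol and a mean of at least 10 counts. The members, lists and tests were chosen with earlier results of these data known. Alternatives were relative log expression (RLE) and upper-quartile scaling, no filter, DESeq2 1.42.0, the replicate number as a block, no mitochondrial genes, 1 fit over 18 libraries, summed counts for the shares, and each library left out in turn. The p-values of edgeR rest on the spread between cultures within groups, pooled over the groups of a fit and with information shared across genes. They do not measure the spread of any 1 group. Totals of 2308442 to 4146549 counts limit the precision for the low genes, CDK6 above all. In any single library a count of 0 allows up to 3 counts.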

Additional observations from a re-analysis of the deposited data

Results flagged for a closer look

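The responses of the 2 lines to the same drug differed in 7 tests of a member, by the test of the difference itself in edgeR's fit over 18 libraries (ZR-75-1 minus CAMA-1, log2). With abemaciclib these were CCND1 (-0.40), CDK4 (0.43), CDK6 (-3.03) and RB1 (-0.70) of 9 members tested, beside 18.2% of all 11987 genes. With palbociclib they were CCND1 (-0.52), CCND3 (0.90) and CDK6 (-2.43) of the same 9 members, beside 20.3% of all genes. The CCND1 difference was one of size, since the gene rose in every drug group. For CDK4 and CCND3 the CAMA-1 libraries fell below DMSO while the ZR-75-1 groups overlapped or, for CCND3 with palbociclib, had a value above DMSO that did not pass the test. Both CDK6 values rest on 0 to 20 counts per library, for a gene that did not pass the filter in CAMA-1 alone. Their DMSO libraries are shared between the drugs of a line, so the pairs of values for CCND1 and CDK6 are not independent. The mitochondrial share lay above the DMSO range with both drugs in CAMA-1 and overlapped it in ZR-75-1. Its part was not tested. All 7 differences were also found with the mitochondrial genes left out, which removes their rows alone. Under the alternatives as a whole, the CDK6 call with palbociclib was lost in 14 of 18. The CDK4 call with abemaciclib was lost in 1 of 18.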

How the results depend on the processing

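Of 78 tests of a member, 40 passed the threshold, and 35 of these did so under every alternative run. The other 5 (RBL2 with palbociclib in CAMA-1, RB1 between the drugs in ZR-75-1, CDK4 with abemaciclib and CDK6 with palbociclib between the lines, and RBL1 between the lines with DMSO) are given with their values beside the results, and the cause was not tested. Of the 38 that did not pass, 6 did so under at least 1 alternative. No value that passed changed its sign. Among those that had not passed, CDK4 with abemaciclib in ZR-75-1 (-0.01) became 0.0038 with upper-quartile scaling, 0.0042 with no filter, 0.0046 with DESeq2 and 0.00012 in 1 fit over 18 libraries, and CDKN2D with palbociclib between the lines (-0.03) became 0.0134 without mitochondrial genes. Leaving out single libraries gave ranges across 0 for RB1 with abemaciclib in CAMA-1 (-0.123 to 0.0208), between the drugs in CAMA-1 for CCND1 (-0.0389 to 0.0031), CDK4 (-0.0940 to 0.0647) and RB1 (-0.0446 to 0.0993), in ZR-75-1 for CDK4 with abemaciclib (-0.0600 to 0.0385), RBL2 with palbociclib (-0.29 to 0.14) and CDK6 between the drugs (-0.31 to 0.77), and between the lines for RBL1 with abemaciclib (-0.0289 to 0.74), CDKN2D with palbociclib (-0.15 to 0.16) and CDKN2D with DMSO (-0.10 to 0.23). Of all genes, 257 differed between the drugs in CAMA-1, and 151 to 197 when 1 library was left out (151 without palbociclib replicate 1 and 154 without abemaciclib replicate 3). In ZR-75-1 1451 did, and 898 with DESeq2.

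No pairing of the cultures by replicate number was seen over all genes tested. Deviations of same-numbered libraries correlated at -0.08 to 0.01, and those of differently numbered libraries at -0.03 to 0.05. Such values cannot show a pairing limited to few genes. The replicate block left 77 of 78 tests of a member on the same side of the threshold, the exception being CDK6 with palbociclib between the lines (adjusted p = 0.059). Low counts limit CDK6 and, with abemaciclib, CDKN2C in CAMA-1, where the intervals are wide. Under abemaciclib, CDKN2C, CDKN2D and RBL1 in ZR-75-1 were also low, at 6 to 19 counts per library. RBL1 in CAMA-1 had 10 to 33 counts under that drug. The shares kept their direction under every alternative, but 3 against 3 libraries cannot give p below 0.1.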

Other observations

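Between the members themselves, line-centred log2 CPM over the 18 libraries formed a set in which CDKN2C, CDKN2D and RBL1 varied together (Pearson r = 0.89 for CDKN2C with CDKN2D, 0.88 for CDKN2C with RBL1 and 0.89 for CDKN2D with RBL1), and CCND1 varied against them (-0.89, -0.76 and -0.84). RBL2 had a positive r with CCND1 (0.60) and a negative r with RBL1 (-0.67). RB1 had its highest r with CDKN2D (0.72), and CDK6 had r between -0.48 and 0.47 with the other members. The values describe libraries that share treatment groups and depth, and carry no test.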
